A study of Phanerodontia chrysosporium with 18 samples.

Results

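Glutathione transferases and the enzymes that remove superoxide, peroxides and protein disulfides were followed in Phanerochaete chrysosporium RP-78, a fungus that causes white rot, on thin spruce sapwood (Picea glauca) at 96 h and at 40 h after inoculation. Both groups grew on the same kind of sections, held in agar that supplied salts and nitrogen but no carbon source, so the groups differed in time alone as far as the labels go. Each library came from 20 pooled sections, there were 3 libraries at 96 h and 3 at 40 h, and each library was read in 3 lanes that were averaged and counted once. The members were chosen by the words of their annotation: 67 of 13602 gene models named glutathione, thioredoxin, glutaredoxin, peroxiredoxin, alkyl hydroperoxide reductase, catalase or superoxide dismutase, and 3 of these were left out as splicing or disulfide isomerase models. The 64 that remained are 26 glutathione transferases, 27 defence enzymes and 11 others that use glutathione or share the thioredoxin fold. They are named by protein number, because the table gives most of them a protein domain rather than a gene name.

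Glutathione is a small thiol peptide of the cell. Glutathione transferases attach it to reactive, electrophilic compounds or use it to reduce them, and in wood-decaying fungi this large family is known for the handling of wood extractives and lignin fragments. Superoxide dismutase turns superoxide into hydrogen peroxide, and catalases, peroxiredoxins and glutathione peroxidases break peroxides down. Thioredoxins and glutaredoxins are small proteins that reduce disulfides and mixed disulfides with glutathione.

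Values are RPKM, the authors' read number scaled to gene model length and library size, so levels of different models can be set side by side. All 64 members reached the filter of at least 1 RPKM in at least 3 libraries, and 1 of them, model 1602413, did so only through the 96 h libraries. Changes are log2 fold changes, 96 h minus 40 h, on the log2(RPKM + 1) scale, tested with limma over 11725 models and called at a Benjamini-Hochberg adjusted p below 0.05. The scale understates the change of models at a few RPKM. Library 2 at 96 h stood somewhat apart, with correlations across models of 0.9838 and 0.992 to the other 96 h libraries against 0.9951 between those. The lowest values put the depth of 96 h libraries 1, 2 and 3 at 0.48, 0.503 and 0.709 times that of the deepest, 40 h library 1, while 40 h libraries 2 and 3 stood at 0.717 and 0.941. Pooled mycelium does not tell fewer cells with a transcript from less transcript per cell.

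Among the 26 transferases 12 were called higher and 9 lower at 96 h, and 5 did not pass. As shares of the family these are 46.2% higher and 34.6% lower, beside 26.3% higher and 35.6% lower of all tested models, of which 62.0% were called in either direction. In 12 transferases every 96 h library lay above every 40 h library and in 9 every one lay below, while over all models 29.5% lay above, 39.8% below and 69.3% on either side. Changes of at least 2-fold were called for 5 higher and 4 lower transferases, or 19.2% and 15.4%, beside 8.35% and 7.47% of all models. The median transferase had a log2 fold change of 0.26, and the median of all models was -0.079. The largest rise and the largest fall in the family had log2 fold changes of 3.53 and -2.28. Only 8 of the 26 are transferases by their curated function. Of these 3 rose and 4 fell, beside 26.3% and 35.6% of all tested models. The others were placed by their listed domain alone, which does not settle what they do.

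**Figure D1:**
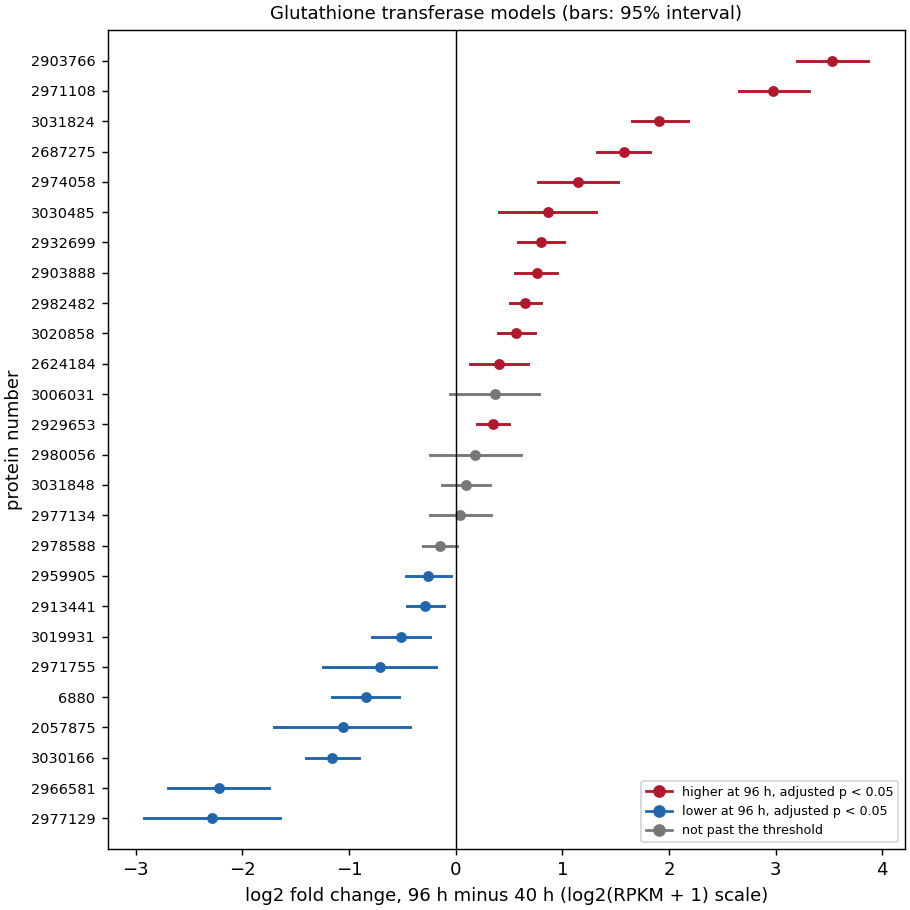
Log2 fold change, 96 h minus 40 h, of the 26 glutathione transferase models on the log2(RPKM + 1) scale (points) with 95% intervals (bars), named by protein number and coloured by the call. They run from 3.53 for model 2903766 to -2.28 for model 2977129, with 12 called higher and 9 lower.

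The steepest rise in the family was that of model 2903766, curated as a glutathione S-transferase and listed without a domain. It had 241, 355 and 328 RPKM in 96 h libraries 1, 2 and 3, against 23.8, 28.1 and 24.4 RPKM in 40 h libraries 1, 2 and 3. The lowest 96 h library stood far above the highest at 40 h, and the log2 fold change was 3.53 (SE 0.14, adjusted p = 6.61e-07 in limma). Model 2971108, another curated glutathione S-transferase, had 239, 178 and 250.1 RPKM at 96 h and 25.0, 30.8 and 25.5 RPKM at 40 h. The log2 fold change of model 2971108 was 2.98 (SE 0.14, adjusted p = 1.36e-06), and library 2 was the lowest of the 96 h group here while it was the highest for model 2903766.

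Model 3031824 was the most abundant transferase at both times. It had 1194, 1084 and 1268 RPKM at 96 h, against 288, 361 and 293 RPKM at 40 h, and by its mean it ranked 66 of 13602 models at 96 h and 407 at 40 h. The groups did not overlap, and the log2 fold change was 1.91 (SE 0.11, adjusted p = 4.5e-06). This single model made up 42.0%, 40.4% and 43.6% of the summed transferase RPKM in the 96 h libraries, against 25.1%, 27.5% and 22.6% in the 40 h libraries.

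A further 2 transferases were at least 2-fold higher. Model 2687275, with the N-terminal domain that binds glutathione, had 232, 203 and 214 RPKM at 96 h and 62.5, 72.3 and 81.5 RPKM at 40 h (log2 fold change 1.58, SE 0.11, adjusted p = 8.11e-06). Model 2974058, listed with the C-terminal domain that forms much of the pocket for the second substrate, had 171 RPKM in library 2 and at least 216 RPKM in libraries 1 and 3 at 96 h, against 70.4, 99.2 and 103 RPKM at 40 h (log2 fold change 1.15, SE 0.16, adjusted p = 0.000464). In both, every 96 h library lay above every 40 h library.

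The other 7 called rises were smaller, with log2 fold changes from 0.35 for model 2929653 to 0.87 for model 3030485. In 6 of these 7 the adjusted p was at most 0.00552. The exception, model 2624184, averaged 4.45 ± 0.386 RPKM at 96 h and 3.13 ± 0.613 RPKM at 40 h (SD, n = 3 each). Its adjusted p of 0.0175 went to 0.0605 without 96 h library 3, 0.0556 without 40 h library 1 and 0.0608 without 40 h library 2, in a range of 0.00661 to 0.146 over all alternatives.

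Falls were led by a pair of curated glutathione S-transferases. Model 2977129 had 13.4, 12.4 and 10.9 RPKM at 96 h, against 38.5, 90.5 and 72.8 RPKM at 40 h (log2 fold change -2.28, SE 0.27, adjusted p = 0.000198). Model 2966581 had 4.97, 5.88 and 5.08 RPKM at 96 h, against 22.4, 24.7 and 41.1 RPKM at 40 h (log2 fold change -2.22, SE 0.20, adjusted p = 4.6e-05). The 96 h libraries lay close together in both, while the 40 h libraries were spread widely, with library 1 low for the first and library 3 high for the second.

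Model 2057875, also curated as a glutathione S-transferase, had 18.9, 14.1 and 19.6 RPKM at 96 h and 26.6, 32.7 and 59.9 RPKM at 40 h (log2 fold change -1.06, SE 0.27, adjusted p = 0.0103). Library 3 was again the highest at 40 h. Model 3030166 had 2.27, 1.97 and 1.95 RPKM at 96 h and 5.28, 5.42 and 6.87 RPKM at 40 h (log2 fold change -1.16, SE 0.10, adjusted p = 4.22e-05), and its groups were apart though its levels were low. The 3 curated models had the widest relative spread of all transferases between 40 h libraries, with coefficients of variation of 44.6% for model 2057875, 39.3% for model 2977129 and 34.7% for model 2966581. The median over the family was 11.2% at 96 h and 11.1% at 40 h.

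The remaining 5 called falls had log2 fold changes from -0.26 for model 2959905 to -0.84 for model 6880. By its mean RPKM model 6880 fell 2.19-fold, from 4.04 RPKM at 40 h to 1.84 RPKM at 96 h, which the log2(RPKM + 1) scale understates. Model 2913441 was the second most abundant transferase at 40 h and fell least among the abundant ones. It had 200.2, 191 and 183 RPKM at 96 h, against 233, 247 and 221 RPKM at 40 h (log2 fold change -0.29, SE 0.076, adjusted p = 0.0117). Some of these smaller calls did not hold under every alternative. The adjusted p of model 2913441 was 0.0576 without 96 h library 3 and 0.0513 without 40 h library 2, in a range of 0.0111 to 0.0576. That of model 2971755, whose libraries overlapped between the times, was 0.0276, and it was 0.0985 without 40 h library 1 and 0.087 without 40 h library 3. With all libraries it was 0.0796 with no filter, 0.0607 after median scaling and 0.0672 after trimmed-mean scaling, and the range was 0.000564 to 0.0985. The weakest call, model 2959905 at 0.0402, was lost when any library but 40 h library 1 was left out, with values up to 0.142. It was also lost with no filter, after either scaling, with library or pool numbers as a block and in 2 of the 3 single lanes, in a range of 0.0131 to 0.191.

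Of the 5 transferases that did not pass, model 3006031 was the only abundant one, with 179, 193 and 117 RPKM at 96 h and 126, 112 and 134 RPKM at 40 h (log2 fold change 0.37, 95% interval -0.052 to 0.78, adjusted p = 0.111). Library 3 at 96 h sat within the 40 h values, and without it the adjusted p was 0.00364, in a range of 0.00364 to 0.284. Models 2980056, 3031848, 2977134 and 2978588 had means between 2.34 and 5.45 RPKM at 96 h and between 2.42 and 5.02 RPKM at 40 h. Model 2980056 had 4.11, 1.89 and 2.94 RPKM at 96 h, against 2.44, 2.49 and 2.32 RPKM at 40 h, and passed without 96 h library 2 (adjusted p = 0.0152, in a range of 0.0152 to 0.923).

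The level used next is the mean over all 6 libraries, which a rise at 96 h itself lifts, and the difference between the levels was not tested. Of the 10 transferases with a mean under 10 RPKM over the 6 libraries 2 rose and 4 fell (20.0% and 40.0%). Their median log2 fold change was -0.053. Of the 16 with at least 10 RPKM, 10 rose and 5 fell (62.5% and 31.2%), with a median of 0.70. Of all tested models, not split by level, 26.3% rose and 35.6% fell. The median SE of the log2 fold change was 0.11 in the low models and 0.14 in the others.

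**Figure D2:**
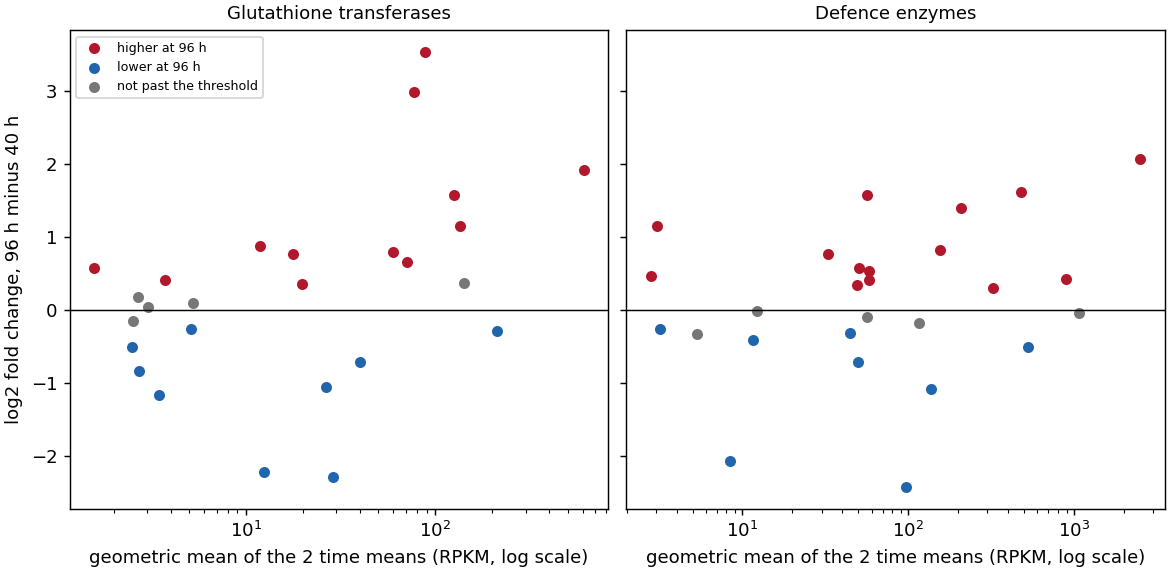
Log2 fold change, 96 h minus 40 h, against the geometric mean of the mean RPKM at 96 h and at 40 h (log axis), for 26 glutathione transferases (left) and 27 defence enzymes (right), coloured by the call. The transferases changed by at least 2-fold upward all lie above 10 RPKM, and in both panels models of like level changed in opposite directions.

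By the domain listed, 7 of 19 transferases with the N-terminal domain rose and 7 fell, or 36.8% each. With the C-terminal domain 4 of 6 rose and 2 fell (66.7% and 33.3%), beside 26.3% and 35.6% of all tested models. The table lists 1 domain per model, so one kind of listing does not show that the other domain is missing. In 7 models the N-terminal domain runs from residue 5 to residue 83 exactly. This position is shared by the most abundant transferase, model 3031824. Models 2977129, 2966581 and 2057875 share it too, 3 of the 4 called at least 2-fold lower on the log2(RPKM + 1) scale. Of the other 3, model 3020858 rose, with 2.18 ± 0.0594 RPKM at 96 h and 1.14 ± 0.112 RPKM at 40 h (SD, n = 3 each), and models 2977134 and 2978588 did not pass. Models that share this domain position moved in opposite directions. The sources used here do not say how reads that match several similar transferase genes were assigned, which leaves each member's value uncertain by that much. No transferase had an entry in the table's signal peptide column, which holds 1274 models.

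As a family the transferases took 0.361%, 0.341% and 0.374% of all summed RPKM at 96 h, against 0.137%, 0.159% and 0.155% at 40 h. The mean share was 0.359% ± 0.0165 at 96 h and 0.150% ± 0.0119 at 40 h (SD, n = 3 each), a ratio of 2.38. The lowest 96 h library had more than 2 times the share of the highest 40 h library. The 5 models called at least 2-fold higher held 75.7% of the transferase RPKM at 96 h and 42.2% at 40 h (means of 3 libraries). The rise of the family share rests largely on these 5, which were picked for their own rise in the same data.

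The 27 defence enzymes had 14 called rises and 8 called falls, and 5 did not pass, which is 51.9% higher and 29.6% lower, beside 26.3% and 35.6% of all tested models. Their median log2 fold change was 0.30. Changes of at least 2-fold were called for 5 higher and 3 lower models, or 18.5% and 11.1% beside 8.35% and 7.47% of all models, in the catalases, peroxiredoxins, glutaredoxins and thioredoxins. Their share of summed RPKM was 1.35%, 1.28% and 1.27% at 96 h, against 0.637%, 0.698% and 0.659% at 40 h, a ratio of 1.96. The 5 models called at least 2-fold higher held 62.6% of the defence RPKM at 96 h and 29.9% at 40 h (means of 3 libraries).

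**Figure D3:**
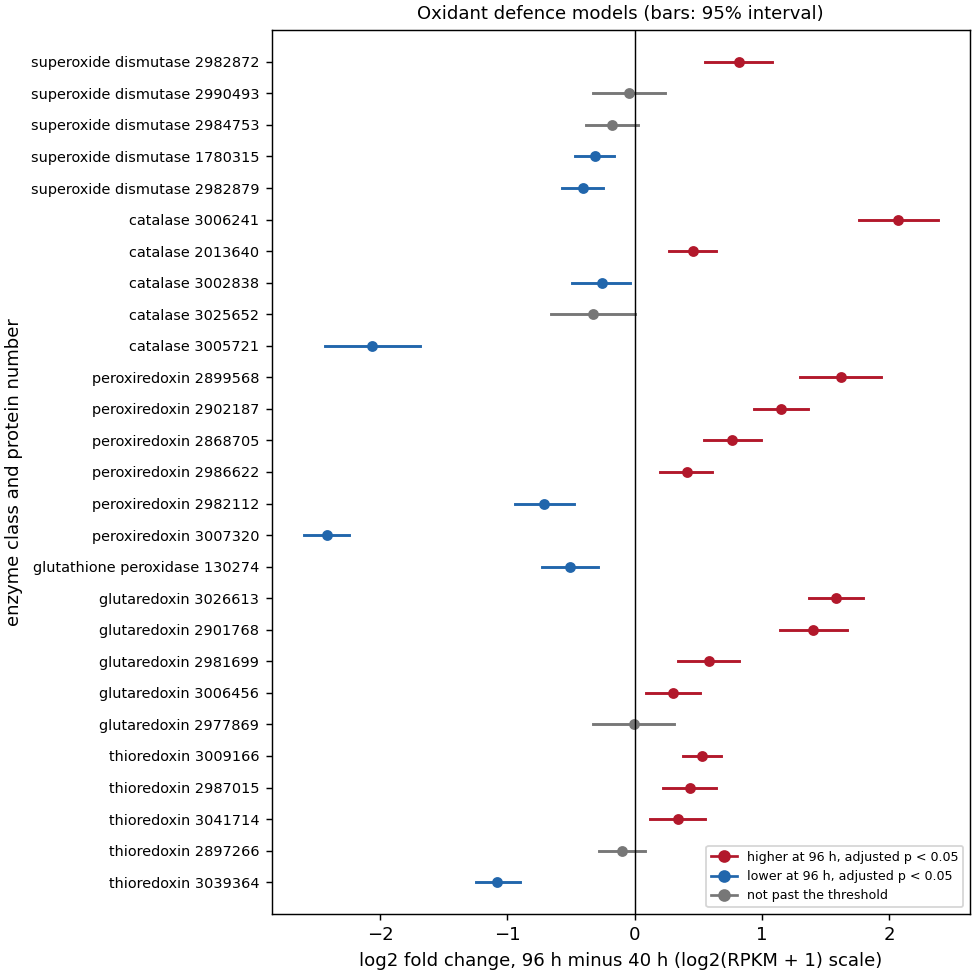
Log2 fold change, 96 h minus 40 h, of the 27 oxidant defence models on the log2(RPKM + 1) scale (points) with 95% intervals (bars), grouped by enzyme class and coloured by the call. Each of the catalase, peroxiredoxin and thioredoxin classes holds models called in both directions, from 2.07 for catalase 3006241 to -2.42 for peroxiredoxin 3007320.

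Of the 5 superoxide dismutases 1 rose, 2 fell and 2 did not pass. These are 20.0% higher and 40.0% lower, beside 26.3% and 35.6% of all tested models. The most abundant dismutase, model 2990493, curated as a manganese enzyme, had 1228, 929 and 1025 RPKM at 96 h and 1019, 1109.8 and 1137 RPKM at 40 h. The times overlapped, and the log2 fold change was -0.046 with a 95% interval of -0.33 to 0.24 (adjusted p = 0.757). Its sign was positive, still without a call, after median or trimmed-mean scaling. The copper and zinc enzyme, model 2982872, was the one dismutase that rose, with 242, 175 and 205 RPKM at 96 h against 117, 117 and 114 RPKM at 40 h (log2 fold change 0.82, SE 0.11, adjusted p = 0.000453). Its 40 h libraries were nearly equal, while those at 96 h were spread.

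Small falls were called for 2 of the remaining manganese or iron dismutase models. In model 1780315 the domain is listed in 2 parts, residues 134 to 180 and 303 to 321, which does not settle what the protein does. Model 2982879 averaged 9.93 ± 0.195 RPKM at 96 h and 13.5 ± 0.696 RPKM at 40 h (log2 fold change -0.41), and model 1780315 averaged 39.8 ± 1.01 RPKM at 96 h and 49.8 ± 2.69 RPKM at 40 h (log2 fold change -0.31; SD, n = 3 each). Model 2984753 averaged 109.6 ± 11.3 RPKM at 96 h and 124.0 ± 5.13 RPKM at 40 h (SD, n = 3 each) and did not pass (adjusted p = 0.112). Without 96 h library 1, which sat among the 40 h values, its adjusted p was 0.0165, in a range of 0.0165 to 0.377. Dismutases together made up 0.182% ± 0.0245 of the 96 h total and 0.167% ± 0.00902 of the 40 h total (SD, n = 3 each), a ratio of 1.09.

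Catalases were dominated by model 3006241. It had 5302, 5014 and 5006 RPKM at 96 h, against 1233, 1395 and 1048 RPKM at 40 h, and by its mean it ranked 7 of 13602 models at 96 h and 57 at 40 h. The groups were far apart (log2 fold change 2.07, SE 0.13, adjusted p = 6.5e-06). This model held 99.7% of catalase RPKM in each 96 h library and between 96.9% and 98.0% in the 40 h libraries, and 49.8%, 49.9% and 50.5% of the RPKM of all defence enzymes at 96 h against 23.1%, 24.2% and 19.1% at 40 h.

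A second curated catalase, model 3005721, went the other way. It had 2.88, 3.99 and 4.42 RPKM at 96 h, against 20.1, 15.2 and 21.4 RPKM at 40 h (log2 fold change -2.06, SE 0.16, adjusted p = 1.74e-05). Even at 40 h it held no more than 1.98% of catalase RPKM in any library.

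The remaining 3 catalases were at a few RPKM. Model 2013640 had 3.47, 3.34 and 3.57 RPKM at 96 h and 2.0, 2.29 and 2.48 RPKM at 40 h and rose (log2 fold change 0.46, adjusted p = 0.00163). Model 3002838 had 2.63, 3.35 and 2.53 RPKM at 96 h and 3.44, 3.54 and 3.78 RPKM at 40 h (log2 fold change -0.26, adjusted p = 0.0447), a call that was lost when any library but 96 h library 2 was left out, with adjusted p up to 0.151 and a range of 0.00342 to 0.188 over all alternatives. Model 3025652, with a signal peptide probability of 1, had 5.02, 3.54 and 5.46 RPKM at 96 h and 6.06, 6.74 and 5.38 RPKM at 40 h and did not pass (adjusted p = 0.0765). Without 96 h library 3 its adjusted p was 0.0453, and with the pool numbers of the column headers as a block it was 0.0274, in a range of 0.0274 to 0.225.

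All 6 peroxiredoxins, peroxidases that reduce peroxides through a cysteine thiol, were called, 4 higher and 2 lower. Of all tested models 62.0% were called, 26.3% higher and 35.6% lower. Model 2899568, curated as Peroxiredoxin-6, had 761, 995 and 759 RPKM at 96 h, against 252, 310.2 and 254 RPKM at 40 h (log2 fold change 1.62, SE 0.14, adjusted p = 2.85e-05). Model 3007320, curated as a thioredoxin peroxidase, had 46.2, 40.0 and 39.1 RPKM at 96 h, against 223, 226 and 232 RPKM at 40 h (log2 fold change -2.42, SE 0.079, adjusted p = 2.38e-07). These were the most abundant peroxiredoxins at 40 h and stood at like levels then, while at 96 h their means were 838 ± 136 and 41.8 ± 3.86 RPKM (SD, n = 3 each). The first held 80.9% of peroxiredoxin RPKM at 96 h and 42.4% at 40 h, and the second 4.09% at 96 h and 35.6% at 40 h.

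Model 2902187 was also at least 2-fold higher, with 5.77, 4.65 and 5.05 RPKM at 96 h against 1.94, 1.74 and 1.65 RPKM at 40 h (log2 fold change 1.15, SE 0.091, adjusted p = 1.99e-05). Models 2868705 and 2986622 rose with log2 fold changes of 0.76 and 0.41, and model 2982112 fell with one of -0.71. The class made up 0.132% ± 0.0172 of the 96 h total and 0.0769% ± 0.00455 of the 40 h total (SD, n = 3 each). The single glutathione peroxidase, model 130274, which uses a thiol to reduce peroxides, had 409.5, 449.8 and 456 RPKM at 96 h, against 577, 618 and 685 RPKM at 40 h. All 96 h libraries lay below those at 40 h (log2 fold change -0.51, SE 0.094, adjusted p = 0.00202).

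Glutaredoxins rose for 4 of 5 models, or 80.0%, beside 26.3% of all tested models. Model 3026613 had 111, 89.1 and 94.5 RPKM at 96 h, against 32.2, 32.8 and 31.0 RPKM at 40 h (log2 fold change 1.58, SE 0.089, adjusted p = 3.3e-06). Model 2901768 had 393, 287 and 339 RPKM at 96 h, against 122, 131 and 128 RPKM at 40 h (log2 fold change 1.40, SE 0.11, adjusted p = 2.4e-05). Both had narrow 40 h groups and more than doubled in every 96 h library. Model 2981699 averaged 61.7 ± 5.33 RPKM at 96 h and 41.0 ± 4.62 RPKM at 40 h (SD, n = 3 each; log2 fold change 0.58, adjusted p = 0.0016).

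The most abundant glutaredoxin, model 3006456, changed least among those called. It had 339, 389 and 345 RPKM at 96 h and 275, 315 and 279.5 RPKM at 40 h (log2 fold change 0.30, SE 0.091, adjusted p = 0.0205). Without 40 h library 1 or 40 h library 3 its adjusted p was 0.0751 or 0.0764, in a range of 0.00322 to 0.0764. Model 2977869, whose listed domain spans only residues 24 to 37, had 10.2, 15.0 and 11.3 RPKM at 96 h and 13.0, 10.9 and 12.5 RPKM at 40 h and did not pass (95% interval of the log2 fold change -0.33 to 0.31). In models 3026613 and 2981699 the domain lies further along the protein, from residue 141 to 205 and from 154 to 218.

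Thioredoxins rose for 3 of 5 models and fell for 1 (60.0% and 20.0%), beside 26.3% and 35.6% of all tested models. Model 2987015, a curated thioredoxin and the most abundant of the class, had 1113, 1004 and 992 RPKM at 96 h, against 771, 739.8 and 794 RPKM at 40 h (log2 fold change 0.43, SE 0.089, adjusted p = 0.00376). The other curated thioredoxin, model 3039364, had 96.0, 95.4 and 89.7 RPKM at 96 h, against 184, 206 and 207 RPKM at 40 h (log2 fold change -1.08, SE 0.075, adjusted p = 9.97e-06). The curated pair has nearly the same domain span, residues 2 to 102 and 2 to 103, and went in opposite directions with no overlap between times in either.

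The uncurated thioredoxin-domain models were classed as thioredoxins by their domain alone, which does not settle what they do. Among these, model 3009166 carries the domain at 2 places and has a signal peptide probability of 0.978. It had 66.7, 71.0 and 73.3 RPKM at 96 h, against 47.6, 49.6 and 47.7 RPKM at 40 h (log2 fold change 0.53, adjusted p = 0.000212). Model 3041714 had 61.9, 50.2 and 53.7 RPKM at 96 h and 41.4, 46.4 and 42.6 RPKM at 40 h (log2 fold change 0.34, adjusted p = 0.0136), and without 40 h library 1 its adjusted p was 0.0534, in a range of 0.00342 to 0.0534. Model 2897266 had 55.1, 53.9 and 54.1 RPKM at 96 h and 52.9, 63.2 and 59.8 RPKM at 40 h and did not pass (95% interval of the log2 fold change -0.28 to 0.079).

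**Figure D4:**
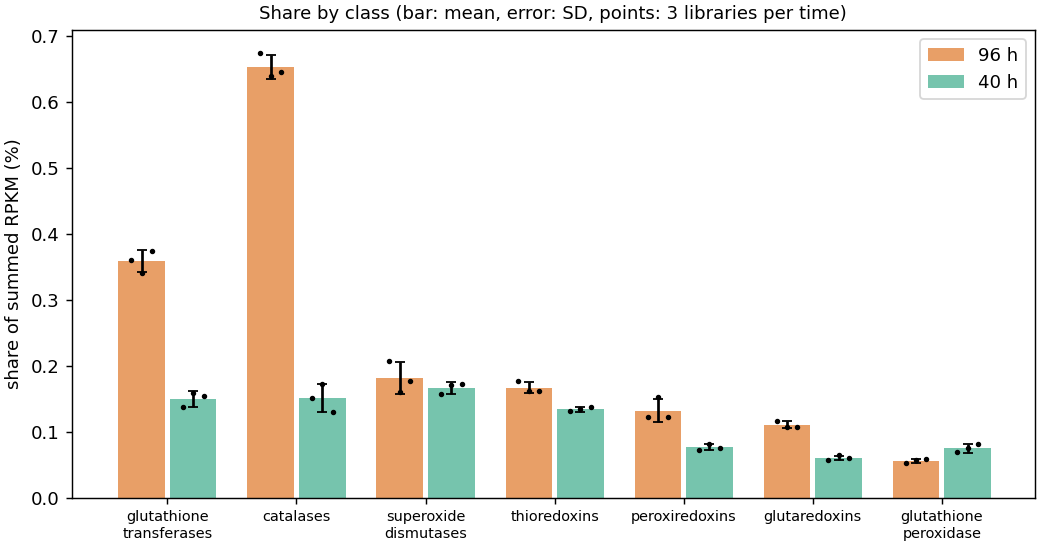
Share of summed RPKM (per cent) taken by the transferases and by each defence class at 96 h and at 40 h (bars: mean, error bars: SD, points: 3 libraries per time). Catalases stood at 0.653% at 96 h and 0.151% at 40 h, while superoxide dismutases overlapped between the times and the glutathione peroxidase was lower at 96 h.

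Among the 11 other members 7 rose, 2 fell and 2 did not pass. These are 63.6% higher and 18.2% lower, beside 26.3% and 35.6% of all tested models. The rises include model 1602413, which passed the filter only through the 96 h libraries. The most abundant of the 11 was model 2975262, curated as a glutathione-dependent formaldehyde dehydrogenase, an enzyme that oxidizes the adduct of formaldehyde and glutathione. It had 1013, 1153 and 1243 RPKM at 96 h, against 236, 302 and 314 RPKM at 40 h (log2 fold change 2.0, SE 0.13, adjusted p = 7.48e-06). By its mean it ranked 68 of 13602 models at 96 h and 456 at 40 h, and the groups did not overlap.

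A further 7 carry the domain named for glutathione-dependent formaldehyde activation, of which 4 rose and 2 fell. These are 57.1% higher and 28.6% lower, beside 26.3% and 35.6% of all tested models. Model 3033790 had 77.4, 72.6 and 84.0 RPKM at 96 h, against 5.19, 4.92 and 5.19 RPKM at 40 h, and its log2 fold change of 3.69 (SE 0.074, adjusted p = 2.86e-08) exceeded that of every other member at the pseudocount of 1. At a pseudocount of 5 it was 3.04, below the 3.35 of transferase model 2903766. Model 1413768 had 114, 116 and 117 RPKM at 96 h, against 26.7, 33.1 and 25.7 RPKM at 40 h (log2 fold change 1.99, SE 0.097, adjusted p = 1.61e-06). Both were tightly grouped at 96 h and lay well above all 40 h libraries.

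Model 1602413 had 4.07, 6.12 and 6.36 RPKM at 96 h, against 0.515, 0.608 and 0.68 RPKM at 40 h (log2 fold change 2.01, SE 0.14, adjusted p = 1.19e-05). Since it passed the filter through the 96 h libraries alone, it could hardly be tested without being higher there. Model 2978835 went down, with 6.36, 6.25 and 5.39 RPKM at 96 h against 15.9, 20.0 and 22.0 RPKM at 40 h (log2 fold change -1.53, SE 0.12, adjusted p = 2.05e-05). The remaining 3 with this domain, models 2964577, 2143160 and 2977850, stayed under 10 RPKM at both times, with log2 fold changes of 0.23, -0.38 and 0.13. The first was called at an adjusted p of 0.0171, and without 40 h library 1 or 2 it stood at 0.0657 or 0.0556, in a range of 0.00313 to 0.895.

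Glutathione synthase, model 3007139, which completes the synthesis of glutathione, averaged 43.3 ± 11.3 RPKM at 96 h and 29.5 ± 3.08 RPKM at 40 h (SD, n = 3 each; log2 fold change 0.51, SE 0.17, adjusted p = 0.0282). Library 2 was the highest at 96 h, with 56.2 RPKM. Without 40 h library 1 or 40 h library 3 the adjusted p was 0.1 or 0.0547, in a range of 0.0122 to 0.1. Model 3032803, of the membrane-bound MAPEG family, varied more among the 96 h libraries than any other member, with 134, 30.8 and 81.8 RPKM, against 126, 104 and 137 RPKM at 40 h. It did not pass (log2 fold change -0.79, 95% interval -1.85 to 0.26, adjusted p = 0.162), though without 96 h library 1 the adjusted p was 0.0186, in a range of 0.0186 to 0.357. The thioredoxin-like model 2915368 had 105, 68.6 and 89.6 RPKM at 96 h, against 51.8, 59.8 and 55.5 RPKM at 40 h, and rose (log2 fold change 0.63, adjusted p = 0.00642).

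**Figure D5:**
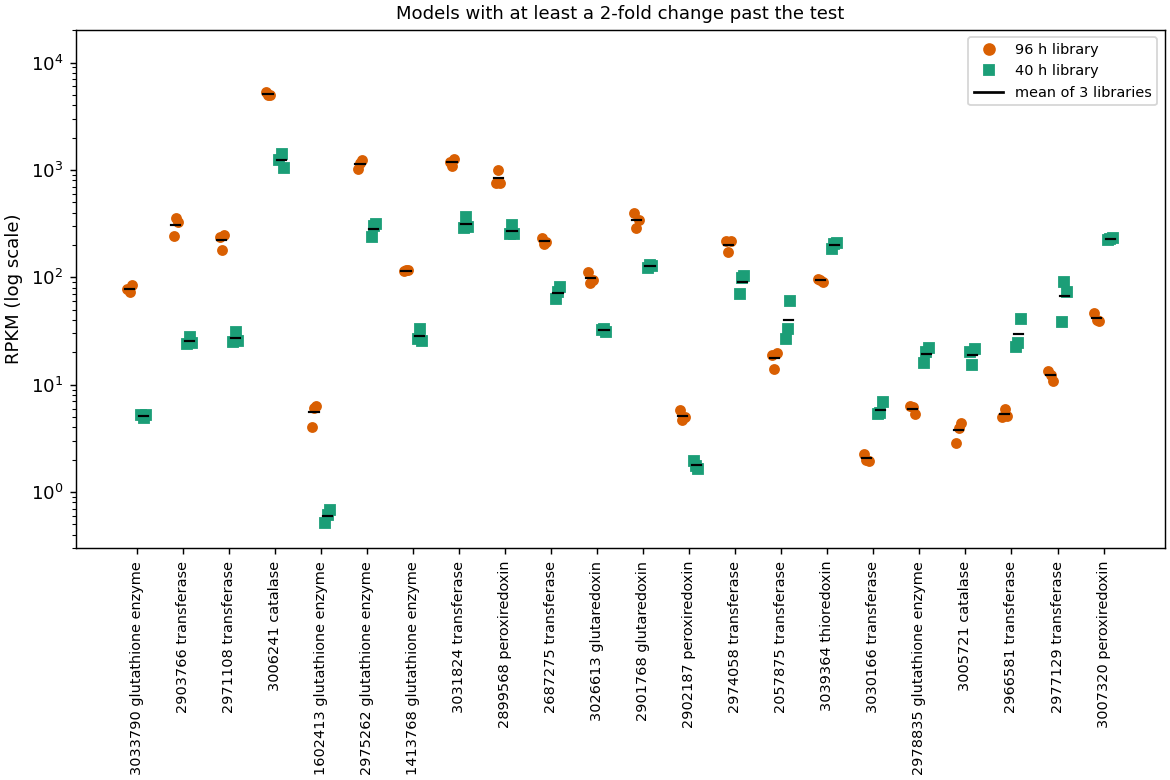
RPKM per library (log axis) of the 22 members called with at least a 2-fold change, ordered by log2 fold change, at 96 h (circles) and 40 h (squares), with the mean of 3 libraries as a line. No model has overlapping times, which the choice by a called 2-fold change makes likely, and 69.3% of all tested models do not overlap. The 40 h libraries of transferases 2057875, 2966581 and 2977129 are spread more widely than those of the other transferases.

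Glutathione is made from cysteine and is kept reduced with NADPH. Of 7 models for glutathione and cysteine supply 3 rose and 2 fell, with a median log2 fold change of 0.054. Of all tested models 26.3% rose and 35.6% fell, and 62.0% were called in either direction. Glutamate-cysteine ligase, model 2905686, the enzyme of the first step of glutathione synthesis, averaged 155 ± 45.2 RPKM at 96 h and 100.0 ± 5.47 RPKM at 40 h (SD, n = 3 each; log2 fold change 0.60, SE 0.18, adjusted p = 0.0193). At 96 h the ligase had 207 RPKM in library 2, against 127 and 131 RPKM in libraries 1 and 3. The list had 2 rises in place of 3 with no filter, without 40 h library 1 and at a threshold of 0.01. Model 3027555 rose by 0.88 on the log2 scale (SE 0.14). It was matched by the core domain of cystathionine beta-synthase, a domain that many proteins of other function carry too.

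Of 12 models listed for NADPH supply 6 rose and 2 fell, with a median of 0.32. The share called in either direction was near that of all models, but the split by direction differed. Rises outnumbered falls in this list, while 26.3% of all tested models rose and 35.6% fell. Called rises of at least 2-fold numbered 3 of 12, beside 8.35% of all models, and no called fall reached 2-fold. They were models 2989759, 2968678 and 2986615, listed as 2-oxoglutarate dehydrogenase, transketolase and transaldolase. None of these is an NADPH-making step. The differences of this list from all models were not tested. The falls numbered 1 without 96 h library 3 or any 40 h library and after median or trimmed-mean scaling, and 3 without 96 h library 2. The largest change was that of model 2989759 (log2 fold change 2.21, SE 0.23), curated as 2-oxoglutarate dehydrogenase, an enzyme of the citrate cycle that shares a transketolase domain. Transketolase model 2968678, of the pentose phosphate pathway, averaged 560.5 ± 56.7 RPKM at 96 h and 231 ± 16.5 RPKM at 40 h (SD, n = 3 each; log2 fold change 1.27, adjusted p = 1.94e-05). Models for the NADPH-making steps of that pathway were chosen after their values were seen. Glucose-6-phosphate dehydrogenase (model 2898322) and the curated 6-phosphogluconate dehydrogenase (model 2985543) rose by 0.55 and 0.57 on the log2 scale. A further 3 models are listed with a 6-phosphogluconate dehydrogenase domain alone, which does not settle what they do. Of these, model 3002681 fell (log2 fold change -0.24, adjusted p = 0.0462), at means of 3.55 RPKM at 96 h and 4.38 RPKM at 40 h. Models 2897218 and 2987166, with log2 fold changes of 0.095 and 0.062, did not pass.

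Of 4 models listed for other redox repair 1 was called, where 62.0% of all tested models were called in either direction. The called model was a copper chaperone that serves cytochrome c oxidase and fell (model 2894873, log2 fold change -0.19, adjusted p = 0.048). The methionine sulfoxide reductases A and B, which repair oxidized methionine, did not pass. Model 122315 averaged 74.2 ± 12.9 RPKM at 96 h and 65.9 ± 1.90 RPKM at 40 h, and model 2977217 averaged 171 ± 14.1 RPKM at 96 h and 149 ± 8.28 RPKM at 40 h (SD, n = 3 each). The list had 0 falls when any library but 40 h library 1 was left out, and 2 rises without 96 h library 2.

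By the P-value and the ratio in the authors' deposited table, 13 transferases were higher and 10 lower at an unadjusted P below 0.05. In the same way 14 defence enzymes were higher and 12 lower, beside 36.2% higher and 48.9% lower of all tested models. That P can be small where libraries of a time differ widely. It was 5.69e-06 for model 3032803 and 4.24e-06 for model 3006031, against adjusted p of 0.162 and 0.111 in limma. Whether lanes or libraries were its unit was not established.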

How the data were processed

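The deposited table holds RPKM made by the authors in 18 columns, 1 per library and lane, with 0.002 where no reads were found. CASAVA 1.8.2 is named in the submitters' processing notes, and no source used here gives the aligner, read counting, genome build or annotation. Per the file headers the table also gives the authors' mean RPKM per time, which equals the geometric mean of the lanes, the ratio of these means, a P-value, a T score and a fraction, the signal peptide probability. The barcode in the sample titles was taken as the library, and the 3 lanes of each were averaged on the linear scale. The filter kept models reaching 1 RPKM in 3 or more of the 6 libraries, which were fitted as log2(RPKM + 1) with limma 3.58.1 in R 4.3.3 (variance trend, no block, two-sided), with Benjamini-Hochberg adjustment over all 11725. Where the section pools are not from separate cultures, p-values measure only the spread between these libraries. Without read totals, counting error is not given. Relative depth is a median ratio of lowest values over 41 models.

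Members and lists were chosen with earlier results of these data known. Values are given per library for members past the threshold with at least a 2-fold change, and for the most abundant member of each class; in classes of up to 5 every member is named, and from each supply list the 2 largest called changes. Members outside this rule, named for their spread, domain or a call that single libraries decide, were chosen after their values were seen. The fit was tested on simulated data. Alternatives were the pseudocount, filter, scaling, variance trend, block, lanes, each library left out, threshold, the authors' own P-value, a block by pool number (added after seeing the data) and the class words.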

Additional observations from a re-analysis of the deposited data

How the results depend on the processing

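Library numbers, which are barcode numbers, were not taken to pair the samples: deviations from the group means correlated at 0.136, 0.133 and -0.102 between libraries 1, 2 and 3 of the times. The column headers also number the pools, which matches 96 h libraries 3, 1 and 2 with 40 h libraries 1, 2 and 3, at correlations of 0.218, -0.0971 and 0.0757. Neither set is over 0.1 in every pair. With the replicate block by library number, 12 transferases rose and 8 fell, 14 defence enzymes rose and 7 fell, 1 NADPH supply model fell, and 0 models of the redox repair list fell. With the block by pool number, chosen after seeing the data, these counts were 12, 8, 14, 9, 1 and 0. Over the settings tried on the full classes, transferase rises numbered 10 to 13 and falls 5 to 10, and defence rises 12 to 14 and falls 7 to 12. The count of 5 transferase falls came at a threshold of 0.01. Those of 10 transferase and 12 defence falls came by the authors' deposited P, which may not measure the spread between libraries. With classes from the curated function alone, 3 rose and 4 fell of 8 transferases, and 3 rose and 3 fell of 8 defence enzymes. NADPH supply had 1 fall in place of 2 without a filter, with the stricter filter, with either scaling, in each single lane and at the threshold of 0.01, and 1 to 3 falls with a library left out. The redox repair list had 0 falls in place of 1 with either scaling, without a variance trend, in lanes 1 and 3 and at 0.01, and 2 in lane 2. With a library left out it had 0 to 1 falls and 0 to 2 rises, 1 rise after trimmed-mean scaling, and 2 rises and 2 falls by the authors' deposited P.

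Of 1199 values of single members under the alternatives, 1134 kept direction and side of the threshold, 43 lost the call, 7 gained it and 15 changed sign, and 44 of 64 members kept both throughout. The sign changes were all in members without a call. The log2 fold change of model 2990493 was 0.0041 after median and 0.032 after trimmed-mean scaling and -0.16 to 0.044 with a library left out. That of model 2977869 was 0.036, 0.062, 0.078 in lane 2 and -0.16 to 0.097. Model 3031848 had -0.078 and model 2977134 -0.13 in lane 1, and with a library left out model 2977134 ranged from -0.065 to 0.12 and model 2980056 from -0.016 to 0.39. The cause was not tested. Trimmed-mean scaling moved the median of all models from -0.0786 to -0.00805. Depth is known only relative to the other libraries.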
